A study of Papio anubis with 28 samples.

Results

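The 14 libraries of native urinary bladder in this RNA-sequencing study of olive baboons (Papio anubis) differ widely in how much muscle transcript they hold, and that spread was used here as a map of the bladder wall. The libraries were chosen by their tissue label, native bladder, and number 14 of the 28 libraries of the study. They were then ordered by the level of DES (desmin, the intermediate filament of muscle cells) in each library, and every other gene was described by how it rose or fell along that order. The order itself comes from measured values, so the levels of DES are a description and carry no test.

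Each of the 14 wild-type animals gave 1 piece of native bladder and 1 piece of the graft sewn into the same bladder. Native bladder came from 5 animals of the Entero arm, labelled as treated with an ileum graft, and from 5 animals of the SIS arm and 4 of the PRS arm, both labelled as treated with an MSC/CD34+ HSPC graft made with primary bone marrow cells. All 14 native pieces thus came from bladders that had been operated on, and no bladder without a graft was analysed. The 9 libraries of regenerated tissue from the SIS and PRS animals are used below as libraries that the order was not built on. They came from 9 of the same 14 animals. The labels do not say which part or depth of the wall was cut, nor what PRS and SIS stand for. Nothing in them says that a piece was trimmed to 1 layer.

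The bladder wall is built in layers. Urothelium, an epithelium with basal cells below and umbrella cells on top, faces the urine and is sealed by plaques of uroplakins. Beneath it lies the lamina propria, a connective tissue with fibroblasts, vessels, nerve fibres and immune cells, and outside that the detrusor, bundles of smooth muscle wrapped in collagen that contract when parasympathetic nerves release acetylcholine and ATP. Fat and a mesothelial cover lie on the outer face. A piece of whole wall holds all of these in proportions that can differ from piece to piece.

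Values are read counts. Totals in the 14 native libraries ran from 22576355 to 35669026 counts, and levels are given as CPM, a gene's counts relative to its library's total after scaling by the trimmed mean of M values (TMM). DES alone, which sets the order, is given over the plain total. In 13 libraries 14835 to 15914 genes had at least 10 reads and the 13 genes of the mitochondrial genome took 6.80 to 10.7% of the counts. PRS native 2 stood below both ranges, with 13630 genes and 4.66%. It was kept, and results that change without it are marked. No 2 native libraries agreed within sampling noise.

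DES stood at 1299.9 CPM in PRS native 4, 3456 in Entero native 2, 3459 in PRS native 3, 4499 in Entero native 1, 4717 in Entero native 3, 4728 in SIS native 2 and 5875 in SIS native 1. The upper part of the order held Entero native 5 at 7086 CPM, SIS native 3 at 11881, SIS native 5 at 19849, PRS native 2 at 26370.3, PRS native 1 at 27119, Entero native 4 at 28696 and SIS native 4 at 29618. Every arm had libraries in both parts of the order. The range was 4.51 on the log2 scale, or 22.8-fold, around a median of 6481 CPM. The largest gap between neighbours, below Entero native 2, covered 31.3% of that range, so the libraries were treated as a continuous series and not as clusters.

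Each gene was fitted with a slope on log2 DES, by edgeR's quasi-likelihood test with Benjamini-Hochberg adjustment over 16543 genes. A slope of 1 means that a gene's level doubles when DES doubles. Below, a gene rose or fell only if its slope was positive or negative with an adjusted p under 0.05. In this sense 2646 genes rose with DES, 16.0% of the genes tested, and 2605 fell, 15.7%. Every count of list members below is to be set against these shares. The median slope of all genes was -0.03, and 5% of genes lay below -0.86 and 5% above 0.63. In whole tissue, fewer cells of a type and less RNA per cell cannot be told apart, so a slope describes the share of transcripts, not a count of cells. When libraries were scaled by their plain totals the median slope moved to -0.13, and 1648 genes rose and 4784 fell. The 1648 that rose and the 2605 that had fallen under TMM kept their calls there. The share of calls that were rises went from 50.4% to 25.6%, and slopes near 0 are therefore best read against the median of all genes.

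The markers given for this gradient behaved unequally. ACTG2 (ENSPANG00000008205), the gamma actin of visceral smooth muscle, ran from 349.5 CPM in PRS native 4 through a median of 3303 to 20734 in SIS native 4. It followed DES closely, and the 5 libraries with the most DES also held the most ACTG2, with no overlap with the other 9. Its slope was 1.24 (SE 0.06, adjusted p = 8.35e-09). Spearman's rho with DES was 0.96 and Pearson's r of the log2 values 0.99, each with a permutation p of 1e-05, the smallest that 100000 resamples can give (adjusted p = 0.000613 and 0.000344), and r stayed at 0.99 without the 2 libraries farthest from the median, PRS native 4 and SIS native 4.

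UPK1A (ENSPANG00000018900), a uroplakin of umbrella cells, did not mark the other end. In the order of DES it stood at 177 CPM in PRS native 4, 795 in Entero native 2, 1671 in PRS native 3, 561 in Entero native 1, 2397 in Entero native 3, 1988 in SIS native 2 and 2005 in SIS native 1, and then at 1078 in Entero native 5, 1243 in SIS native 3, 373 in SIS native 5, 2339 in PRS native 2, 534 in PRS native 1, 158 in Entero native 4 and 73.1 in SIS native 4. It was low at both ends of the order, high in the middle, and high again in PRS native 2, a library with much DES. Its slope of -0.22 did not pass (SE 0.30, adjusted p = 0.614). Spearman's rho was -0.30 (permutation p = 0.297, adjusted p = 0.423) and r -0.27 (permutation p = 0.354, adjusted p = 0.483), and r was -0.49 without the 2 farthest libraries. The muscle end of the order was thus well marked, while a single mucosal end was not: among the gene lists the lowest median slopes were those of lymphocytes, and only part of the epithelial genes fell.

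**Figure D1:**
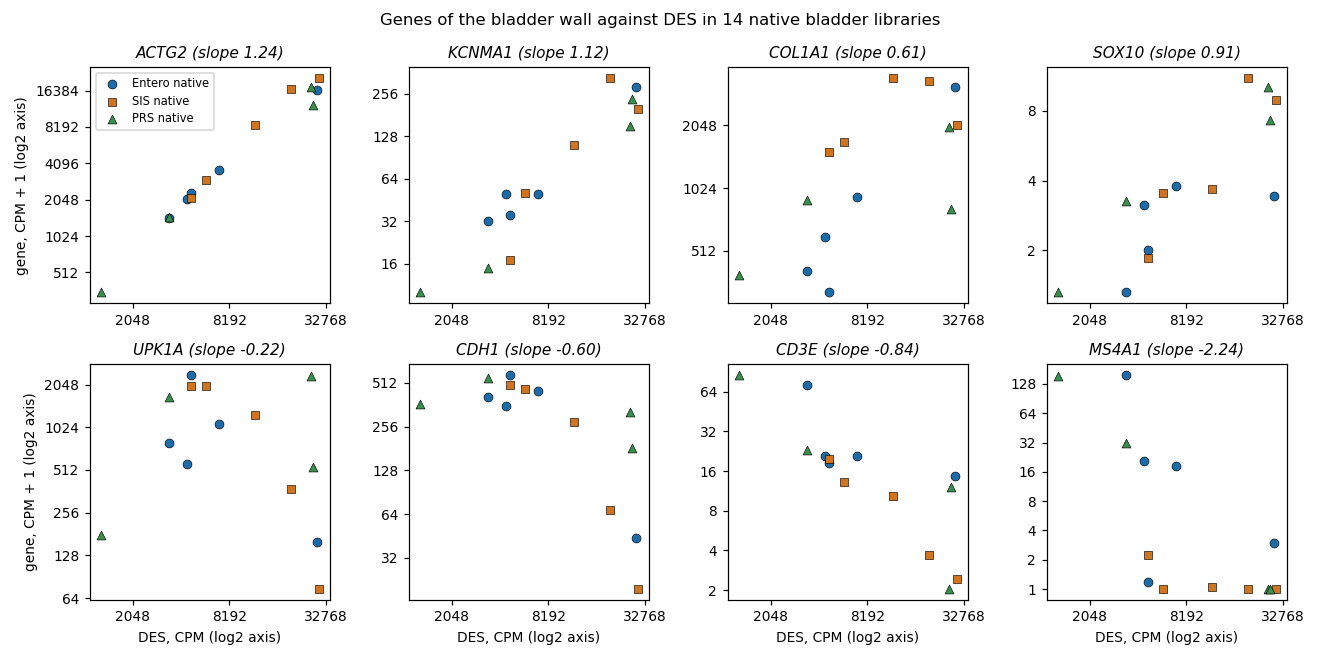
Level of 8 genes (CPM + 1, log2 axis) against the DES level (CPM, log2 axis) in the 14 native libraries, 1 point per library, with colour and shape for the arm and the fitted slope in each title. ACTG2, KCNMA1, COL1A1 and SOX10 climb with DES, UPK1A is low at both ends, CDH1 is low in 3 of the 5 libraries with the most DES, and MS4A1 is at or near 0 in most libraries outside the low end.

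All 11 tested genes of the smooth muscle contractile apparatus rose, against 16.0% of all genes, with a median slope of 1.03, and all 11 rose with arm in the model and without any single library. Their summed level went from 3428 to 89683 CPM. TAGLN (transgelin, which binds actin in smooth muscle) ran from 599.7 CPM in PRS native 4 through 3684 to 17924 in SIS native 4, a slope of 1.06 (SE 0.06, adjusted p = 1.64e-08). CNN1 (calponin, an inhibitor of the actomyosin ATPase) had the smallest adjusted p of the list, with a slope of 1.08 (SE 0.05, adjusted p = 1.7e-09) and levels of 197 to 6514 CPM. MYLK, the kinase that starts contraction by phosphorylating the myosin light chain, rose by 1.05 per doubling of DES (SE 0.10). The vascular and visceral actin ACTA2 rose a little less, by 0.96 (SE 0.07). MYL6, an essential light chain that many cell types express, had the lowest slope of the list at 0.68 (SE 0.06). MYH11 and SMTN are not analysed here.

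Genes of the cytoskeleton and dense bodies, which anchor the contractile filaments, rose in 16 of 17 cases, with a median slope of 0.86. SYNM (synemin, a partner of desmin) had a steeper slope than most, 1.25 (SE 0.12), and ran from 41.7 CPM in PRS native 4 to 3239 in SIS native 4. FLNC, a muscle filamin, and SYNPO2, a Z-disc and dense body protein, both had slopes of 1.13 (SE 0.08 and 0.10). The exception was ITGA8, an integrin that lamina propria and detrusor cells can both carry, at -0.34 (SE 0.16, adjusted p = 0.104). It passed as a fall without Entero native 3 (-0.38, adjusted p = 0.0217) and with library totals.

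Of 15 genes of calcium handling and ion channels 13 rose, with a median slope of 0.91. KCNMA1 (ENSPANG00000022497), the BK potassium channel that limits detrusor excitability, ran from 9.04 CPM in PRS native 4 through 49.4 to 328 in SIS native 5. The 6 libraries with the most DES, those from SIS native 3 upward, were the 6 with the most KCNMA1. Its slope was 1.12 (SE 0.11, adjusted p = 2.61e-06), with rho 0.88 (permutation p = 0.00014, adjusted p = 0.00207), r 0.95 (permutation p = 1e-05, adjusted p = 0.000344) and r 0.93 without the 2 farthest libraries. Its beta subunit KCNMB1 rose by 0.97 (SE 0.08), CASQ2, a calcium buffer of the sarcoplasmic reticulum, by 1.13 (SE 0.14), RYR2, its release channel, by 0.91 (SE 0.11), and CACNA1C, the L-type calcium channel, by 0.72 (SE 0.09). The subunits of the nitric oxide receptor guanylyl cyclase, GUCY1A1 at 0.23 (SE 0.12, adjusted p = 0.153) and GUCY1B1 at 0.16 (SE 0.11, adjusted p = 0.288), did not pass. Both passed without PRS native 2, the library with fewer genes detected (adjusted p = 0.043 and 0.0108), and GUCY1A1 also without PRS native 4 (adjusted p = 0.0334).

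Receptors that drive or relax bladder contraction split. Of 15, 7 rose and 0 fell, with a median slope of 0.38. TACR2, the neurokinin A receptor, was the steepest at 1.34 (SE 0.14, adjusted p = 5.63e-06), from 5.32 CPM in PRS native 4 through 226 to 1034 in SIS native 4. P2RX1, the ion channel opened by nerve-released ATP, rose by 1.23 (SE 0.15, adjusted p = 2.57e-05) and was highest in Entero native 4 at 1589 CPM against 5.20 in PRS native 4. CHRM2, the more abundant muscarinic receptor of detrusor, had no read in PRS native 4, a median of 5.02 CPM and 43.7 in SIS native 4, with a fitted slope of 1.18 (SE 0.20, adjusted p = 0.000376). These 3 slopes were as steep as those of the contractile genes. The others were flatter: the prostaglandin receptors PTGFR at 0.60 (SE 0.17, adjusted p = 0.0159) and PTGER3 at 0.52 (SE 0.14, adjusted p = 0.0101), the relaxing beta-3 adrenoceptor ADRB3 at 0.57 (SE 0.20, adjusted p = 0.0408) and the endothelin receptor EDNRB at 0.35 (SE 0.11, adjusted p = 0.0195). ADRB3 and EDNRB did not pass with library totals, where 5 of the list rose, and 9 rose without PRS native 2. The call of ADRB3 ended without any 1 of 9 libraries (adjusted p up to 0.171), and that of PTGFR without PRS native 4 (adjusted p = 0.0631). Without both PRS native 4 and Entero native 2 only TACR2, P2RX1 and CHRM2 of the list rose. The oxytocin receptor OXTR stood at 0.26 (SE 0.14, adjusted p = 0.182), and passed without PRS native 4 (adjusted p = 0.0268). CHRM3 is not analysed here.

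Among 11 transcription factors of smooth muscle 6 rose. MYOCD (myocardin, the coactivator that switches on contractile genes) ran from 1.43 CPM in PRS native 4 through 13.7 to 79.0 in SIS native 4, a slope of 1.11 (SE 0.12, adjusted p = 7.29e-06). Its DNA-binding partner SRF, which is present in most cells, rose by 0.58 (SE 0.05), GATA6 by 0.72 (SE 0.07), TSHZ3, required for smooth muscle of the urinary tract in mice, by 0.60 (SE 0.06), and FOXF1 by 0.47 (SE 0.05). The related coactivator MRTFA stayed near all genes at -0.05 (SE 0.05, adjusted p = 0.465), though with library totals it passed as a fall, and MEF2C stood at -0.11 (SE 0.14, adjusted p = 0.601).

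Connective tissue genes rose with the muscle genes, with flatter slopes. Of 13 genes in a list named for fibroblasts of the lamina propria 12 rose, with a median slope of 0.62, and 9 rose without PRS native 4. The list also holds genes of adventitial fibroblasts, so it does not mark 1 layer. DCN (decorin, a proteoglycan of collagen fibres) ran from 684 CPM in PRS native 4 through 2921 to 5991 in SIS native 5, a slope of 0.52 (SE 0.11, adjusted p = 0.00226). PDGFRA, a receptor that marks fibroblasts, rose by 0.37 (SE 0.07). PI16 and MFAP5, both of adventitial fibroblasts, rose by 0.92 (SE 0.16) and 0.94 (SE 0.19), and the WNT antagonist SFRP4 by 1.31 (SE 0.25), close to the contractile genes. SFRP4 stood between 667 and 1164 CPM in 5 of the 6 libraries with the most DES and at 114 in the other, PRS native 2. APOD did not pass (0.04, SE 0.11, adjusted p = 0.819).

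All 10 fibrillar and stromal collagens rose, with slopes of 0.46 to 0.67. COL1A1 (ENSPANG00000022601), the main chain of type I collagen, had its lowest level of 322 CPM in Entero native 3, a median of 1223.5 and its highest of 3449 in SIS native 3. It was not highest where DES was: PRS native 1 held 809.8 CPM, less than PRS native 3, SIS native 2 and SIS native 1, which had far less DES. The slope was 0.61 (SE 0.16, adjusted p = 0.00906), with rho 0.71 (permutation p = 0.0056, adjusted p = 0.0241), r 0.71 (permutation p = 0.00586, adjusted p = 0.0226) and r 0.63 without the 2 farthest libraries. COL6A1, a microfibrillar collagen found around muscle bundles, rose by 0.53 with a smaller error (SE 0.07, adjusted p = 7.31e-05), and COL3A1 by 0.50 (SE 0.15, adjusted p = 0.0192), a call that ended without Entero native 4 or PRS native 4 (adjusted p = 0.0584 and 0.0539) and with library totals. Without both PRS native 4 and Entero native 2, 7 of the 10 collagens rose. Of 9 genes of elastic fibres 8 rose, among them FBN1 (fibrillin, 0.73, SE 0.13) and ELN (elastin, 0.69, SE 0.14), and of 12 genes of basement membranes 11 rose, with a median slope of 0.61. LAMA5, a laminin chain that epithelia lay down, was the flattest of these at 0.15 (SE 0.04, adjusted p = 0.0166). Its call ended without SIS native 4 (adjusted p = 0.057) and with library totals.

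Vessels and nerves gave mixed slopes. Of 11 endothelial genes EGFL7 rose (0.22, SE 0.07, adjusted p = 0.0194), a count near the 16.0% of all genes, and it did not pass without Entero native 4 (adjusted p = 0.0529) or with library totals (adjusted p = 0.148). PECAM1, the junction protein of endothelium, stood at 41.6 to 152 CPM with a slope of 0.13 (SE 0.10, adjusted p = 0.335). The list was uneven over libraries left out: 4 members rose without PRS native 1, 3 without PRS native 2 and 3 without PRS native 4. Genes of pericytes, the contractile cells around small vessels, rose in 7 of 10 cases, led by CSPG4 at 0.97 (SE 0.08) and MCAM at 0.75 (SE 0.06), both of which smooth muscle also expresses, with RGS5 at 0.42 (SE 0.09). NOTCH3, a receptor of the same cells, stood at -0.07 (SE 0.12, adjusted p = 0.715). Of 5 lymphatic genes LYVE1 (0.75, SE 0.13), CCL21 (0.78, SE 0.22) and FLT4 (0.35, SE 0.11, adjusted p = 0.0251) rose, FLT4 not without Entero native 4 or SIS native 5 (adjusted p = 0.0825 and 0.0507), with arm in the model, with library totals or by Spearman's rho.

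Schwann cell genes rose almost as steeply as muscle genes. Of 9 tested 6 rose and 1 fell, with a median slope of 0.80. SOX10 (ENSPANG00000003891), the master factor of peripheral glia, stood at 0.321 CPM in Entero native 2 and 0.327 in PRS native 4, at a median of 2.49, and at its highest of 10.05 in SIS native 5. Its level was low throughout, and 4 of the 5 libraries with the most DES were the 4 highest, Entero native 4 being the exception. The slope was 0.91 (SE 0.17, adjusted p = 0.00114), with rho 0.81 (permutation p = 0.00091, adjusted p = 0.00678), r 0.84 (permutation p = 0.0002, adjusted p = 0.00208) and r 0.78 without the 2 farthest libraries. CDH19, a glial cadherin, rose by 0.99 (SE 0.24). MBP, the myelin gene that lymphoid cells also transcribe, fell by 0.36 (SE 0.12, adjusted p = 0.0331), and its call ended with arm in the model and without any 1 of 4 libraries (adjusted p up to 0.111). ERBB3, shared with epithelium, stood at -0.34 (SE 0.20, adjusted p = 0.225) and passed without PRS native 2 (adjusted p = 0.0314). Transcripts of neurons stood out in 1 library. SIS native 4 held 59.4 CPM of STMN2, 51.7 of NPY and 45.5 of PRPH, a cytoskeletal protein of peripheral neurons, while the other 13 libraries held at most 1.88, 5.29 and 3.63. PRPH rose by 1.13 (SE 0.33, adjusted p = 0.0156) with that library and stood at 0.27 (adjusted p = 0.594) without it. Of 11 neuronal genes PRPH and UCHL1 rose, a count near the 16.0% of all genes, and 0 rose with arm in the model or by Spearman's rho.

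Of 5 genes of interstitial cells GJA1 (connexin 43, 0.41, SE 0.10), KCNN3 (a small-conductance potassium channel, 0.74, SE 0.17) and the transcription factor ETV1 rose, beside 16.0% of all genes. Of these KCNN3 alone rose without both PRS native 4 and Entero native 2. KIT, the receptor used to find such cells, stood at -0.30 (SE 0.17, adjusted p = 0.194), and as a fall passed without PRS native 1 (adjusted p = 0.0376). Mast cells also carry KIT. Of 5 mast cell genes the protease gene CMA1 (0.60, SE 0.21, adjusted p = 0.0433) and HDC, which makes histamine, (0.37, SE 0.13, adjusted p = 0.0487) rose. CPA3 did not pass (0.06, SE 0.19, adjusted p = 0.828). From the 16.0% of all genes that rose so short a list does not stand apart. The calls of CMA1 and HDC ended without any 1 of 10 and of 11 libraries (adjusted p up to 0.135 and 0.161), with library totals and by Spearman's rho. Positional genes followed the muscle in part. Of 12 HOX and T-box genes 6 rose and 0 fell, beside 16.0% of all genes that rose and 15.7% that fell. TBX4 ran from 0.0818 CPM in PRS native 4 through 19.3 to 91.4 in SIS native 5 (slope 1.13, SE 0.20, adjusted p = 0.000582), TBX5 rose by 0.82 (SE 0.14) and HOXD13, the most distal HOX gene of its cluster, by 0.77 (SE 0.11). TBX3 at -0.23 (SE 0.13, adjusted p = 0.188) and HOXA13 at 0.13 (SE 0.09, adjusted p = 0.288) did not pass. TBX3 passed as a fall without PRS native 4 (adjusted p = 0.0461), and HOXA13 as a rise without PRS native 2 (adjusted p = 0.0215).

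**Figure D2:**
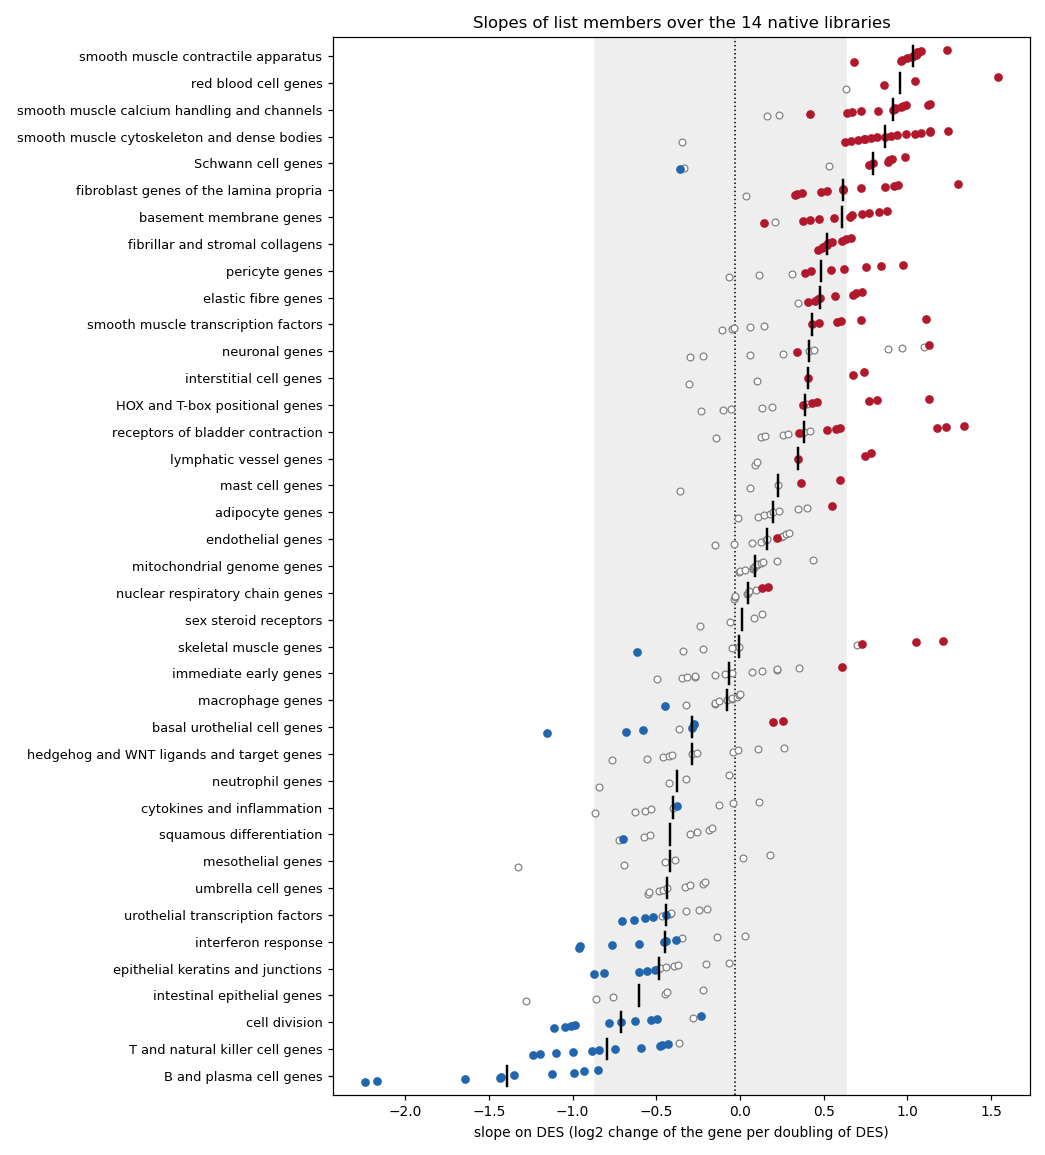
Slope of each tested list member on DES (log2 change of the gene per doubling of DES) over the 14 native libraries, 1 line of points per gene list. Red and blue points rose and fell with an adjusted p under 0.05, open points did not pass, black bars are list medians, the dotted line is the median of all genes (-0.03) and the grey band holds the middle of all genes (-0.86 to 0.63). The medians of the contractile, cytoskeleton and calcium handling lists, 0.86 to 1.03, lie beyond the band at right. So do those of red blood cell and Schwann cell genes, 0.95 and 0.80. That of the B and plasma cell genes, -1.39, lies beyond it at left, and those of smooth muscle transcription factors and receptors, 0.43 and 0.38, lie inside it.

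Of 9 umbrella cell genes 0 rose and 0 fell, beside 15.7% of all genes that fell, a share from which so short a list does not stand apart. Their median slope was -0.44, and all 9 slopes were negative. By DESeq2, and with the letter of the animal code as a covariate, TMPRSS2 and SNX31 fell. They varied greatly, with a summed level of 360 CPM in SIS native 4 and 19290.4 in Entero native 3. PSCA, a surface antigen of the upper layers, ran from 150.5 CPM in SIS native 4 through 3469 to 12805 in Entero native 3 with a slope of -0.30 (SE 0.25, adjusted p = 0.378). UPK3A, a uroplakin of the same plaques, was highest in PRS native 2 at 1653 CPM and lowest in SIS native 4 at 55.7, with a slope of -0.33 (SE 0.25, adjusted p = 0.34). UPK2 stood at 48.6 CPM in PRS native 4, the library with the least DES, and at 29.1 in SIS native 4, that with the most. Library choice mattered for this list: UPK3A (-0.79, adjusted p = 0.0254) and TMPRSS2, a membrane protease, fell without PRS native 2, SNX31 (-0.76, adjusted p = 0.0183) fell without PRS native 4, and 3 fell without both PRS native 4 and Entero native 2.

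Other epithelial genes fell in part, beside 15.7% of all genes that fell. List medians were -0.44 for transcription factors and -0.48 for keratins and junctions. Of 11 urothelial transcription factors EHF (-0.70, SE 0.18, adjusted p = 0.00694), FOXA1 (-0.63, SE 0.19, adjusted p = 0.0174), KLF5 (-0.52, SE 0.14, adjusted p = 0.0126), ELF3 (-0.57, SE 0.21, adjusted p = 0.0454) and PPARG (-0.44, SE 0.16, adjusted p = 0.0403) fell. FOXA1, a pioneer factor of urothelium, stood at 14.4 CPM in SIS native 4, at a median of 184 and at 296 in PRS native 3. The calls of ELF3 and PPARG ended without any 1 of 12 and of 8 libraries (adjusted p up to 0.104 and 0.101) and with arm in the model, so that 3 of the 11 fell without Entero native 1, 3 or 4, PRS native 3, or SIS native 1, 2, 4 or 5, while 7 fell without PRS native 4. GATA3 (-0.32, SE 0.27, adjusted p = 0.38) and the basal factor TP63 (-0.19, SE 0.28, adjusted p = 0.64) did not pass. TP63 was at 10.4 to 80.5 CPM in 12 libraries and at 2.55 and 0.596 in SIS native 4 and Entero native 4.

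CDH1 (ENSPANG00000024394), E-cadherin of all epithelial cells, lay at 366 CPM in PRS native 4, between 355 and 581 in the 7 libraries that follow, at 276 in SIS native 3, and at 67.6, 320, 181, 42.9 and 18.5 in the 5 with the most DES. The fall lay in the upper part of the order, where SIS native 5, Entero native 4 and SIS native 4 were far below PRS native 1 and 2. Its slope was -0.60 (SE 0.20, adjusted p = 0.0312), with rho -0.73 (permutation p = 0.00393, adjusted p = 0.0188), r -0.72 (permutation p = 0.00167, adjusted p = 0.00911) and r -0.77 without the 2 farthest libraries. The call ended without Entero native 4, PRS native 3 or SIS native 5 (adjusted p = 0.0721, 0.052 and 0.0596). In all 5 of 12 genes of epithelial keratins and junctions fell. EPCAM, an epithelial adhesion molecule, fell by 0.87 (SE 0.15, adjusted p = 0.000397) from 382 CPM in PRS native 4 to 6.51 in SIS native 4, the tight junction gene TJP3 by 0.81 (SE 0.14), ST14, a membrane protease, by 0.55 (SE 0.16) and ESRP1, an epithelial splicing factor, by 0.51 (SE 0.19, adjusted p = 0.0493). ESRP1 lost its call without any 1 of 12 libraries (adjusted p up to 0.116) and with arm in the model. The list gave 10 falls without PRS native 2, 7 without PRS native 4, and 3 without Entero native 4, PRS native 3 or SIS native 5. KRT13, a keratin of the intermediate layers, stood at -0.07 (SE 0.35, adjusted p = 0.902), with 343 CPM in PRS native 1 and 0.239 in Entero native 4, and passed as a fall without PRS native 1 (-0.97, adjusted p = 0.0423). KRT5, KRT8, KRT18 and KRT19 are not analysed here.

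Genes of basal urothelial cells split, with 5 falls and 2 rises among the 10 tested. KRT17, a keratin of basal and stressed epithelium, had the steepest fall (-1.15, SE 0.20, adjusted p = 0.000583), from 49.4 CPM in PRS native 4 through 4.98 to 0.553 in SIS native 4. KRT15 fell by 0.68 (SE 0.21) and the basal cadherin CDH3 by 0.58 (SE 0.19, adjusted p = 0.0279), the latter not without Entero native 4 or SIS native 4 (adjusted p = 0.0654 and 0.0641). ITGA6, an integrin of the basal cell face, passed narrowly (-0.29, SE 0.10, adjusted p = 0.0476), and lost the call without any 1 of 11 libraries (adjusted p up to 0.118). The 2 that rose, DST (0.26, SE 0.06), a cytolinker with muscle isoforms, and the laminin chain LAMA3 (0.20, SE 0.06), did not pass with library totals. Falls in the list numbered 7 without PRS native 2, 2 without Entero native 4 or SIS native 4, and 3 without Entero native 2, 3 or 5 or SIS native 3 or 5. Among 8 genes of squamous differentiation KRT6A fell (-0.70, SE 0.25, adjusted p = 0.0473), a count near the 15.7% of all genes that fell. Its call ended without any 1 of 11 libraries (adjusted p up to 0.0998), while without PRS native 4 the list gave 2 falls. None of 11 hedgehog and WNT genes passed, among them SHH (-0.42, SE 0.24, adjusted p = 0.186), the signal from urothelium to stroma, and its receptor PTCH1 (-0.26, SE 0.13, adjusted p = 0.151), though PTCH1 (adjusted p = 0.0413) and the ligand WNT7B fell without PRS native 2, and WNT7B without PRS native 4.

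Among the 39 lists those of lymphocytes had the lowest median slopes. All 10 genes of B and plasma cells fell, beside 15.7% of all genes, with a median slope of -1.39. MS4A1 (ENSPANG00000016129), the B cell surface protein CD20, stood at 154 CPM in PRS native 4, 158 in Entero native 2, 30.95 in PRS native 3, 19.5 in Entero native 1 and 17.2 in Entero native 5. The other 9 libraries held 0 to 1.95 CPM, 5 of them with no read. The slope was -2.24 (SE 0.53, adjusted p = 0.00453), with rho -0.77 (permutation p = 0.0023, adjusted p = 0.0129), r -0.74 (permutation p = 0.00249, adjusted p = 0.012) and r -0.62 without the 2 farthest libraries. CR2, the complement receptor of B cells and follicular dendritic cells, had a slope of -2.17 (SE 0.53) and CD79A, part of the B cell receptor, of -1.43 (SE 0.29). JCHAIN, which joins secreted antibodies, was more widely spread, from 1037 CPM in PRS native 4 to 0.67 in SIS native 5 (slope -1.35, SE 0.27, adjusted p = 0.00131).

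Of 12 genes of T and natural killer cells 11 fell, with a median slope of -0.80. CD3E (ENSPANG00000011054), a chain of the T cell receptor complex, stood at 85.0 CPM in PRS native 4 and 71.5 in Entero native 2, between 9.43 and 22.1 in 9 libraries, and between 1.04 and 2.68 in PRS native 2, SIS native 4 and SIS native 5. Its slope was -0.84 (SE 0.18, adjusted p = 0.00228), with rho -0.84 (permutation p = 0.00037, adjusted p = 0.00378), r -0.83 (permutation p = 7e-05, adjusted p = 0.00106) and r -0.73 without the 2 farthest libraries. The interleukin-7 receptor IL7R fell by 1.24 (SE 0.25) and CD3D by 1.19 (SE 0.21), while the cytotoxic gene PRF1 did not pass (-0.36, SE 0.25, adjusted p = 0.282). Myeloid genes gave flatter slopes. The macrophage receptor CD163 stood at -0.02 (SE 0.12, adjusted p = 0.922) between 5.67 and 21.9 CPM. Of 11 macrophage genes CD68, a lysosomal protein of many cells, alone fell (-0.45, SE 0.09), beside 15.7% of all genes that fell. None of 4 neutrophil genes passed, S100A9 standing at -0.84 (SE 0.34, adjusted p = 0.0748). S100A9 passed as a fall without Entero native 4 or PRS native 4 (adjusted p = 0.00517 and 0.0407) and with arm in the model. By Spearman's rho, by DESeq2 and with library totals both S100A9 and MNDA (-0.32, SE 0.13, adjusted p = 0.0643) fell, 2 of the 4, and MNDA fell without Entero native 3, PRS native 1 or PRS native 2.

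B and plasma cell transcripts were highest in the 2 libraries with the least DES. The summed level of the B and plasma cell list was 2201 CPM in PRS native 4, 1852 in Entero native 2, 576 in Entero native 1, 515 in PRS native 3 and 9.36 to 200.4 in the other 10. Cell division and interferon genes were highest in the same 2 libraries. MKI67, present in dividing cells, stood at 164 CPM in PRS native 4 and 160 in Entero native 2 against at most 30.98 elsewhere (slope -1.11, SE 0.32, adjusted p = 0.0157), and 10 of 11 cell division genes fell, with a median slope of -0.71. MX1, an antiviral GTPase induced by interferon, stood at 251 and 172 CPM in these 2 and at 10.1 to 32.2 in the other 12 (slope -0.76, SE 0.17, adjusted p = 0.00296), and 7 of 10 interferon genes fell. OAS2, an enzyme of the antiviral response, fell by 0.96 (SE 0.17). IFI44L, also an interferon gene, did not (0.03, SE 0.12, adjusted p = 0.868).

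With both libraries left out, a setting chosen after seeing the data, fewer members of these lists fell. They numbered 4 of 10 B and plasma cell genes, 3 of 12 T and natural killer cell genes, 1 of the cell division genes and 4 of the interferon genes. Of all 15492 genes tested in this setting 1853 fell. The count of cell division genes was near that share, and that of T and natural killer cell genes not far above it. Median slopes were -0.91, -0.56, -0.28 and -0.03, beside -1.39, -0.80, -0.71 and -0.45 with all 14 libraries. Without PRS native 4 alone, 9, 6, 3 and 4 fell in the same lists, and MKI67 and MX1 no longer passed (adjusted p = 0.06 and 0.0505). Without Entero native 2 alone, 10, 9, 10 and 7 fell. Arm as a covariate left 9, 10, 6 and 6 falls. By Spearman's rho 9, 10, 3 and 4 fell, and MKI67 and MX1 were not called. MKI67 was also not called with arm in the model. Over all 15492 genes tested 2274 rose and 1853 fell without both libraries.

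**Figure D3:**
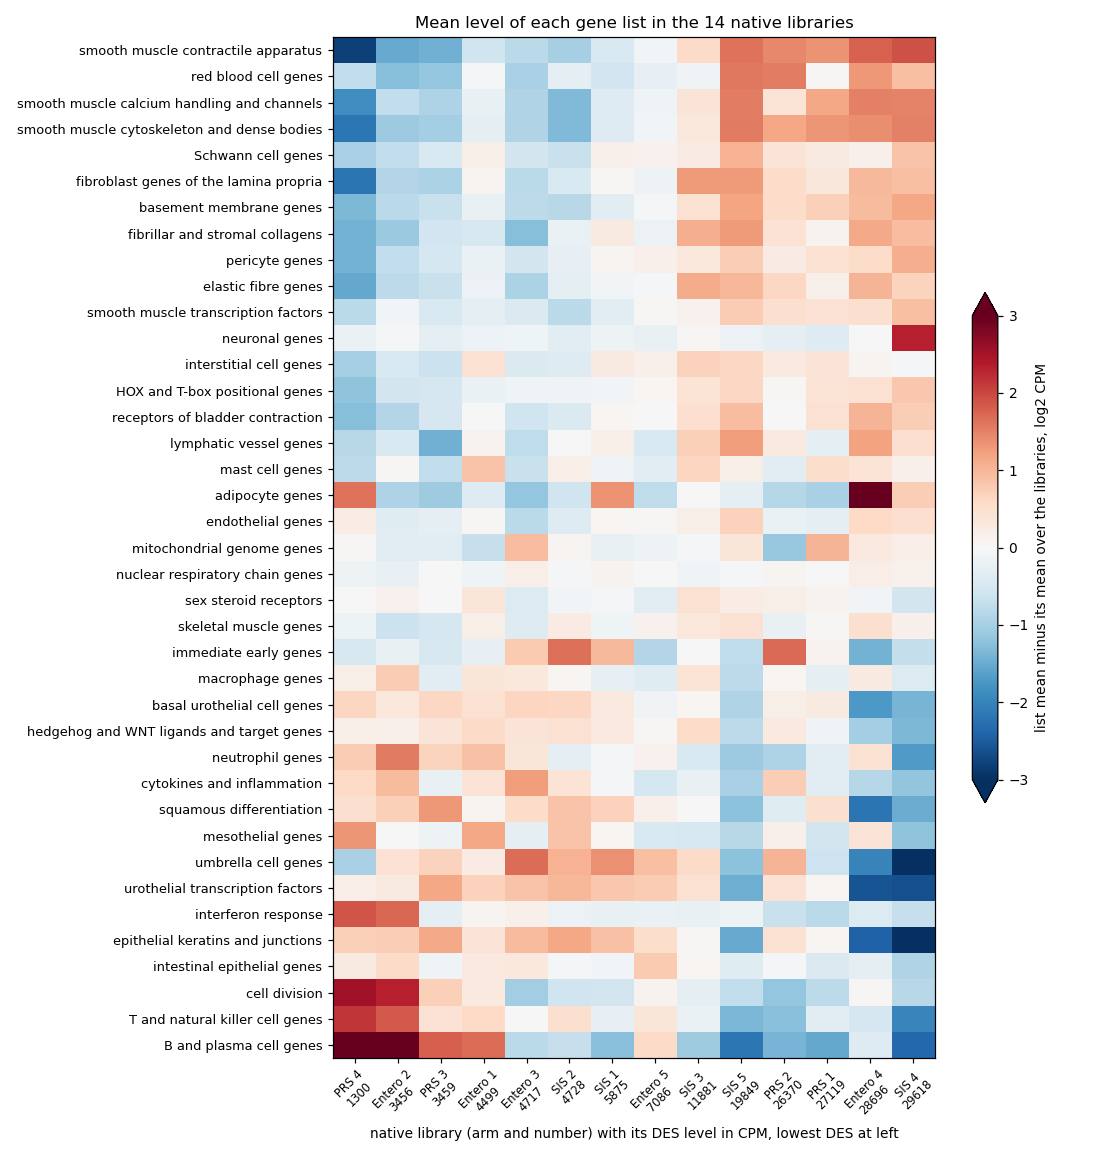
Mean level of 39 gene lists (top to bottom by median slope) in the 14 native libraries (left to right by DES in CPM), as the difference in log2 CPM from the list's own mean over the libraries, with colours ending at 3 above and below. Muscle and stromal lists turn from blue to red from left to right, the lymphocyte and cell division lists are red in the 2 leftmost libraries, and umbrella cell genes are blue at both ends.

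Transcripts of tissues outside the mucosa and muscle stood out in a few libraries. Adipocyte genes stood out in Entero native 4, with 57.4 CPM of ADIPOQ (adiponectin) and 61.0 of LEP (leptin), against at most 11.3 and 19.6 elsewhere, both in PRS native 4. Of 9 such genes only PLIN4 rose (0.55, SE 0.18, adjusted p = 0.0304), beside 16.0% of all genes that rose. Its call ended without any 1 of 4 libraries, Entero native 4 among them (adjusted p up to 0.116), with arm in the model and by Spearman's rho. None of 6 mesothelial genes passed. UPK3B, a uroplakin in that list, stood at -0.39 (adjusted p = 0.221) and passed as a fall without PRS native 4 (-0.58, adjusted p = 0.0433). It had 1560 reads in PRS native 4, 12410 in SIS native 1 and 302 in SIS native 4. In the same libraries UPK2 had 1187, 31549 and 685 reads, and MSLN 683, 63 and 0. MSLN, a mesothelial surface protein, stood at 27.9 CPM in PRS native 4, 13.8 in Entero native 2 and 12.1 in Entero native 4, and at 0 to 4.15 in the other 11. ITLN1, another member of that list, stood at 308 CPM in Entero native 1 and 139 in PRS native 4 (slope -1.32, SE 0.61, adjusted p = 0.113). It passed as a fall without PRS native 2 (adjusted p = 0.0319). MSLN had 59 reads in Entero native 1, so ITLN1 did not follow it there. Transcripts of ADIPOQ, LEP and MSLN were thus present in libraries from both ends of the order. None of 6 intestinal genes passed. CDH17 fell without Entero native 3, SIS native 2 or SIS native 3, and CDX1 without Entero native 4. Reads of the 2 intestinal markers lay mostly in the Entero arm, whose animals had an ileum graft. CDX2, which was not tested, had 1 to 16 reads in the Entero native libraries and 0 in those of SIS and PRS. VIL1 had 7 to 19 reads against 0 to 5. The list's median slope was -0.60, and -0.33 with arm in the model. The part of the graft in this was not tested.

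Of 4 red blood cell genes HBB, ALAS2 and SLC4A1 rose, beside 16.0% of all genes, and the median slope was 0.95. HBB (beta globin) lay between 23.5 and 151 CPM in 10 libraries and at 278.6, 797, 883 and 1118 in SIS native 4, Entero native 4, SIS native 5 and PRS native 2, all among the 5 with the most DES, with PRS native 1 the exception at 146 (slope 0.86, SE 0.18, adjusted p = 0.00245). Of 9 skeletal muscle genes ACTA1 (1.05, SE 0.30), MYH1 (1.21, SE 0.41) and TNNC2 rose and TNNI2 fell (-0.61, SE 0.18), and the median was -0.01. Of all genes 16.0% rose and 15.7% fell. ACTA1, a sarcomeric actin, reached 23.0 CPM at most, and its call ended without Entero native 4 (adjusted p = 0.0643), while that of MYH1 ended without any 1 of 5 libraries (adjusted p up to 0.0631), that of TNNC2 without any 1 of 11 (adjusted p up to 0.0818), and 1 of the 9 rose without Entero native 1 or 4 or SIS native 4 or 5. Of 14 immediate early genes, which respond within minutes to handling, NR4A3 rose (0.61, SE 0.21, adjusted p = 0.0377), beside 16.0% of all genes that rose. Its call ended without any 1 of 9 libraries (adjusted p up to 0.146). FOS did not pass (-0.50, SE 0.39, adjusted p = 0.35) and was highest in SIS native 2 at 2201 CPM and SIS native 1. Of 9 cytokine genes IL33, an alarm signal of lining cells, fell (-0.37, SE 0.08, adjusted p = 0.00328), beside 15.7% of all genes that fell. None of the 13 genes of the mitochondrial genome and none of the 4 sex steroid receptors passed, with medians of 0.09 and 0.01.

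By likeness to DES, measured as Spearman's rho over the 14 libraries among genes of at least 5 CPM, the nearest were TAGLN, TPM2, RBPMS, MYL9, NUPR1, TEAD2, CD59, ROR2, ARHGEF25, HSPB6, ZNF358 and UBAC1, at rho 0.97 to 0.99. TAGLN, TPM2 and MYL9 are contractile genes. RBPMS, an RNA-binding protein of smooth muscle splicing, ran from 48.2 CPM in PRS native 4 through 114 to 405 in SIS native 4, with a slope of 0.71 (SE 0.05). ROR2, a receptor for WNT5A, rose by 0.80 (SE 0.06), HSPB6, a small heat shock protein of relaxed smooth muscle, by 0.86 (SE 0.07), and ARHGEF25, an activator of RhoA, by 0.84 (SE 0.07). Genes with the same order thus had slopes from 0.39 (UBAC1) to 1.06. At the opposite end lay RASSF5, PTPN6, MAGT1, TJP3, CAPN3, TMC6, GIMAP8, C4orf19, HERC6, SLFN13, TTC39C and SP100, at rho -0.98 to -0.96. PTPN6, a phosphatase of blood cells and epithelium, ran from 247 CPM in PRS native 4 through 79.5 to 12.5 in SIS native 4 (slope -0.67, SE 0.10, adjusted p = 0.000122), and GIMAP8, a GTPase of lymphocytes, fell by 0.74 (SE 0.09). TJP3 is the single epithelial list member among the 12. All 24 had a permutation p of 1e-05 for rho, the smallest that the resamples can give (adjusted p = 0.000613). They were picked by that same rho, so this p follows from the choice and lends the 24 no support. In all, 432 genes had rho of at least 0.9 and 176 of -0.9 or below.

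The calls were also made within a model that holds the arms apart. With arm as a covariate 2322 genes rose and 2400 fell, 2285 and 2151 of them called in the same direction without it. A difference of slopes between arms passed for 1 of 17133 genes in edgeR's quasi-likelihood test, the fatty acid carrier FABP4 (adjusted p = 0.00291), with 2773 genes at an unadjusted p under 0.05 and 1125 genes called by DESeq2's likelihood ratio test. In the order of DES, FABP4 stood at 61.6, 62.2, 97.1, 107 and 531 CPM in the 5 Entero libraries, at 171, 225, 121, 106 and 124 in the 5 SIS libraries and at 164, 135, 61.1 and 66.8 in the 4 PRS libraries. It was highest in Entero native 4, the library with the most ADIPOQ and LEP, and the part of fat transcripts in this difference was not tested.

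The same slopes were fitted in the 9 regenerated libraries, which had totals of 23598232 to 31743317 counts and DES at 1549 to 27260.4 CPM, with a median of 4076. There 1196 genes rose, 7.44% of 16086 tested, and 746 fell, 4.64%. Of 5121 genes called in native bladder and fitted there, 4513 (88.1%) had a slope of the same sign, against 64.4% of 10745 genes not called. Of the 2628 native rises fitted there 967 rose (36.8%, or 80.9% of the regenerated rises), of the 2493 native falls 455 fell (18.3%, or 61.0% of the regenerated falls), and 0 passed in the opposite direction. The animals are shared, so these are not independent animals. No gene of 17161 had a slope that differed between native and regenerated tissue in edgeR's quasi-likelihood test, with 2324 at an unadjusted p under 0.05 and 176 called by DESeq2. Without PRS regenerated 2, 482 genes rose and 203 fell and 8 slopes differed. Without PRS regenerated 3, 704 rose and 224 fell, and without PRS regenerated 4, 782 and 273.

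In regenerated tissue all 11 contractile genes rose again, ACTG2 by 1.23 (SE 0.10, adjusted p = 0.000166), with a list median of 1.01 beside 1.03 in native bladder. Of 10 collagens 9 rose, and of 9 Schwann cell genes 3. None of 11 urothelial transcription factors fell there, though the list median was -0.52, and UPK1A again did not pass (-0.29, SE 0.57, adjusted p = 0.779). The medians of the lymphocyte lists were closer to 0 than in native bladder. That of the cytokine genes was 0.50, beside -0.40 in native bladder. Of the T and natural killer cell genes 0 of 12 fell, with a median of -0.17, CD3E standing at -0.25 (SE 0.20, adjusted p = 0.454), while 5 of 10 B and plasma cell genes fell, with a median of -0.93. MS4A1 fell by 2.14 (SE 0.41, adjusted p = 0.00883), standing at 25.9 and 12.1 CPM in PRS regenerated 4 and 3, the 2 libraries with the least DES, and at no more than 0.867 in the other 7. Red blood cell genes had a median of 0.17 beside 0.95 in native bladder. A smaller number of libraries and a passed or failed threshold do not show a difference between the tissues, and the test of the difference called no gene.

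**Figure D4:**
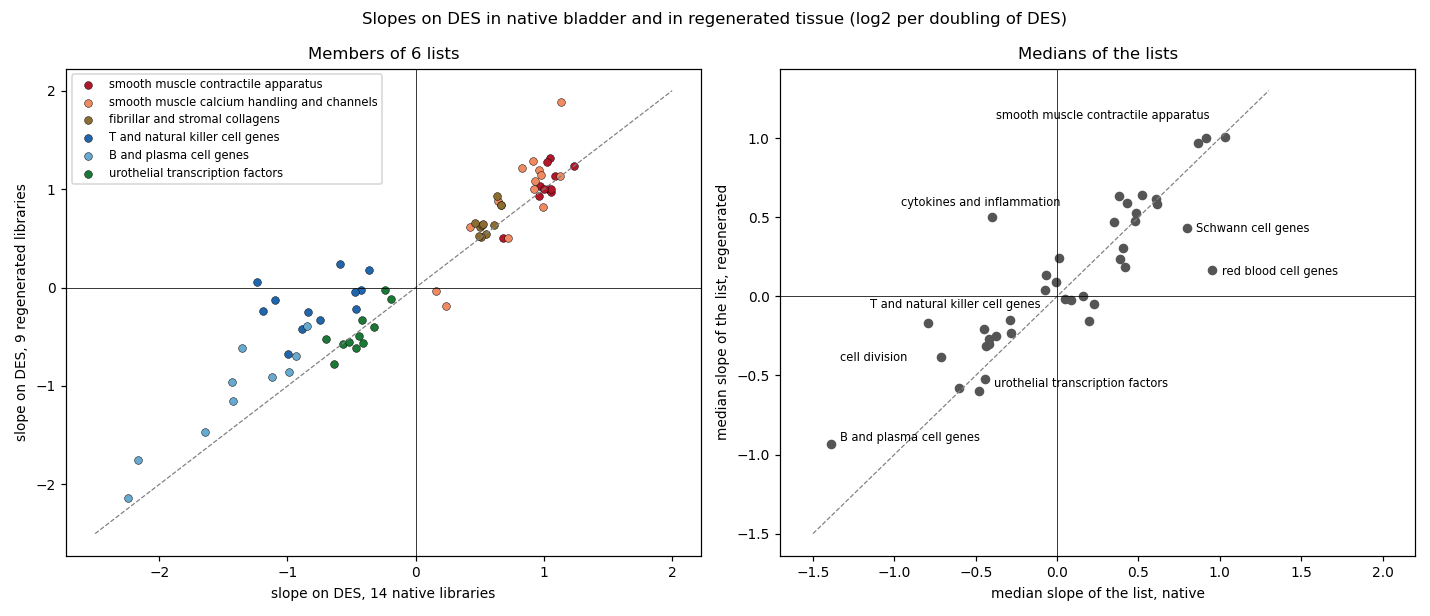
Slopes on DES (log2 change per doubling of DES) in the 14 native libraries (horizontal axis) and the 9 regenerated libraries (vertical axis), for members of 6 lists at left and for the medians of 39 lists at right. The dashed line marks equal slopes. Contractile genes lie near the line, with medians of 1.03 and 1.01, B and plasma cell genes are negative in both, and T and natural killer cell genes lie between -1.24 and -0.36 in native bladder, with a median of -0.17 in regenerated tissue.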

How the data were processed

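The measurement was poly-A RNA sequencing of 28 libraries, of which the 14 of native bladder were used, and the 9 of regenerated tissue for comparison. The deposited values are raw read counts for each gene. Per the submitters' processing notes the tools were featureCounts 1.5.0-p3, HISAT2 2.0.5 and StringTie 1.3.3b, with no role stated. A genome build, and whether counting used strand, were not given in the sources used. A gene's reads can therefore include those of an antisense or overlapping partner, and near-identical copies are uncertain. Symbols were taken from the table (27533 genes, 6280 without a symbol). Columns belonging to no sample of the series numbered 0.

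Counts were fitted with edgeR 4.0.16 in R 4.3.3: filterByExpr with a minimum count of 10 and the model's design, which left 16544 genes in native bladder, TMM scaling, and a quasi-likelihood test of the slope on log2 CPM of DES, counts over the plain library total. DES was left out of the genes tested. P-values were adjusted by Benjamini and Hochberg's method over all genes tested in a fit, with a threshold of 0.05. The SE of a slope was taken back from the F value. Spearman's rho and Pearson's r used log2(CPM + 1), with two-sided permutation p-values from 100000 resamples, adjusted over all genes. No correlation is given within an arm, since arms held 4 or 5 libraries and the minimum was 6. Differences of slope between tissues or arms were tested as interaction terms. The script was tested on simulated counts. Each library is 1 animal, so p-values measure the spread between animals, with the piece cut from each included.

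The 39 gene lists (433 genes, 409 in the table, 383 tested) and the members were chosen with earlier results of these data known. Lists are described by counts and medians, with no test of their own. The text names the 12 genes per direction with the most extreme rho among those past the threshold with a symbol and a mean of at least 5 CPM, up to 5 members of each list with the smallest p, and cell type markers. A few list members are counted but not reported here by name. Not every gene under this rule is named, and other list members named were chosen after their values were seen.

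Alternatives were scaling by library totals or by DESeq2 1.42.0 size factors, DESeq2's own tests, no filter, arm, the letter of the animal code or the number in the title as a covariate or block, ACTG2 or the contractile list in place of DES, Spearman's rho in place of the slope, and each library left out. Leaving out PRS native 4 and Entero native 2 together was added after seeing the data.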

Additional observations from a re-analysis of the deposited data

Results flagged for a closer look

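Within each arm the mean log2 level of every gene list, and the log2 levels of DES, ACTG2 and UPK1A, were checked. A library was flagged if its gap to the nearest other exceeded the 95% critical value for its group size. Of 126 groups checked 9 held such a library, and chance flags about 1 in 20 groups. Entero native 4 stood apart most often. Its means were 3.18 for urothelial transcription factors (nearest other 6.05), 4.10 for epithelial keratins and junctions (6.91) and 1.47 for squamous differentiation (3.74), each the lowest of its arm, and 6.62 for adipocyte genes (2.94), the highest. It is the Entero library with the most DES, and calls that end without it are given with the results above.

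PRS native 4 had the highest mean of its arm for adipocyte genes (4.94, nearest other 2.47) and for endothelial genes (4.71, nearest 4.29). Entero native 2 had the highest mean of its arm for interferon genes (6.18, nearest 4.62), and SIS native 4 the lowest of its arm (3.76, nearest 4.23). SIS native 4 also had the highest mean for neuronal genes (3.76, nearest 1.46). The neuronal RNA-binding protein gene ELAVL4 had 49 reads there and 0 in the other 13 native libraries.

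FABP4 was the single gene whose slope on DES differed between the arms in edgeR's quasi-likelihood test (adjusted p = 0.00291), with its high level of 531 CPM in Entero native 4.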

How the results depend on the processing

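Counts of rising and falling genes in native bladder moved by more than 1.5 times under library totals alone (1648 rose, 4784 fell). They ran from 2239 to 3123 and from 2036 to 3356 over single libraries left out, and were 2274 and 1853 with PRS native 4 and Entero native 2 both left out. Native libraries of different arms with the same number in the title are different animals. Each gene's arm mean was subtracted, and the remaining deviations of same-numbered native libraries were correlated. These correlations ran from -0.46 to 0.72 over 13 pairs, and are not correlations of the levels themselves. With that number as replicate block 2082 genes rose and 2543 fell, among them 3 of the 9 umbrella cell genes. With the animal as replicate block, 0 slopes differed between tissues. In regenerated tissue rises ran from 482 to 1373 and falls from 203 to 920 over libraries left out, and falls numbered 1680 in DESeq2 and 471 with arm. Slopes differing between tissues numbered 176 in DESeq2 and 0 to 8 over libraries left out (8 without PRS regenerated 2, 1 without PRS native 4). Slopes differing between arms numbered 1125 in DESeq2 and 5 without a filter. The cause of these differences was not tested.

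Over the genes named in the text, 4126 of the alternative values kept direction and call, 259 lost the call, 82 gained one and 48 changed sign without a call. None changed sign with a call. Depth limits genes under about 1 CPM, such as TBX4 and SOX10 at the low end, where counting error adds to the spread.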
